A study of Mus musculus with 17 samples.

Results

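miR-143 and miR-145 are microRNAs (miRNAs) known for their abundance in smooth muscle, and their rows were followed here in exosomes from mouse feces. The members were every row of the count table named miR-143, miR-145a or miR-145b, with all arms listed. This gave 4 rows of 1487: mmu-miR-143-3p, mmu-miR-145a-3p, mmu-miR-145a-5p and mmu-miR-145b, written below without the species prefix. miR-143-5p, also named in the rule, was not analysed here. The 17 libraries held small RNA from vesicles precipitated out of fecal homogenate with the ExoQuick reagent. All came from IL-10 KO mice on a C57BL/6J background, which lack the anti-inflammatory cytokine interleukin 10 in every cell and are used as a model of colitis. There were 10 start-point libraries, 7 from males and 3 from females, and 7 end-point libraries, 5 from males and 2 from females. The mice were obtained at 4 weeks of age and housed singly, and their ages at the start-point and end-point were not given in the sources used here. No wild-type library was analysed here, so every comparison lies within the knockout, and time point cannot be told apart from the age of the mice.

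A miRNA is cut from a hairpin precursor, and each side of the hairpin, the 5p and the 3p arm, can yield a mature strand. One arm is usually loaded into the silencing complex as the guide and the other is mostly degraded. In most tissues the guide of miR-145 is the 5p arm and that of miR-143 is the 3p arm. The pair of hairpins is transcribed together from one locus, which serum response factor and myocardin switch on in contractile smooth muscle. In the intestine these miRNAs are mainly known from the mesenchyme, the smooth muscle and myofibroblasts beneath the epithelium, where they take part in repair after injury. miR-145b shares its seed with miR-145a-5p, so how short reads were divided between those 2 rows is uncertain.

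On assembly GRCm38.p6, Mir145a lies on chromosome 18 at 61647825 to 61647894 and Mir143 at 61649196 to 61649258, both on the minus strand. They are separated by 1301 bases. RefSeq places both inside the long noncoding RNA gene Carmn, at 61645878 to 61665538. GENCODE vM21 starts Carmn at 61649625, which leaves both hairpins outside it by 366 bases or more. Mir145b is a separate gene on the same chromosome, at 69022199 to 69022273 on the minus strand, and lies 7372940 bases beyond Mir143. No other GENCODE gene overlapped any of the 3 miRNA genes.

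Library totals ran from 32320 to 178075 counts. Those under 75000 counts were end-point libraries 1, 3 and 7, and the main values are also given without these 3 shallow libraries. End-point libraries 1 and 2 carry the label of the same mouse. A floor for low levels was set at 3 counts per library, which ran from 16.8 to 92.8 CPM (counts per 1000000 of the library total). Rows could have fewer counts than this floor. Levels below are in CPM. They are not divided by length, because a read spans a whole mature miRNA, and ligation bias between sequences still affects comparisons between rows. Fold changes come from edgeR's quasi-likelihood test across all 1270 smRNAs that passed its filter on low counts, with trimmed-mean (TMM) scaling between libraries and p-values adjusted over all of them. The fit treats the libraries as independent, although 6 mice gave libraries at both time points. A row was called at an adjusted p under 0.05. A higher CPM cannot tell more vesicles from a cell type from more of a miRNA per vesicle.

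Of the 4 rows, all of which were tested, 2 were called higher at the end-point and 0 lower, in a table where 17.4% of smRNAs were called higher and 16.3% lower, or 33.7% in either direction. The rows that rose were both 3p arms, miR-145a-3p and miR-143-3p, one from each hairpin of the cluster. Neither miR-145a-5p nor miR-145b passed the test. Summed over the 4 rows, start-point libraries held 823 ± 421 CPM (SD, n = 10; range 239 to 1485), and the sum in end-point libraries was 4824 ± 3593 CPM (SD, n = 7; range 1044 to 12370).

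miR-145a-3p, usually the minor strand of its hairpin, was near the lower end of the table at the start-point. Its level there was 7.21 CPM in the lowest library, 40.1 in the median and 80.1 in the highest, from 1 to 10 counts per library. At the end-point the lowest, median and highest were 251, 744 and 3033 CPM, from 9 to 491 counts. All 7 end-point libraries lay above all 10 start-point libraries, an absence of overlap in the upward direction that 0.472% of tested smRNAs showed, against 5.12% in the downward direction. By mean level the row moved from rank 1431 to rank 129 of 1487. The log2 fold change was 5.90 ± 0.67 (SE), with an edgeR adjusted p of 8.08e-07, and without the 3 shallow libraries it was 6.76 ± 0.54 with 8.15e-09. Scaled to library totals only, the log2 fold change was 4.92. Relative to the median of all smRNAs, which was -0.18 with TMM and -0.67 with library totals, the rise was 6.09 and 5.59. Within the end-point, the 4 deeper libraries held 744 to 3033 CPM and the 3 shallow ones 251 to 438 CPM.

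miR-143-3p, the guide strand of miR-143, was the most abundant of the 4 rows at both time points by mean CPM. At the start-point its lowest, median and highest levels were 123, 525 and 1222 CPM. At the end-point they were 274, 2174 and 11780 CPM. The time points overlapped: 5 of the 7 end-point libraries exceeded every start-point library, while end-point libraries 2 and 4, at 297 and 274 CPM, lay within the start-point range. The log2 fold change was 2.87 ± 0.55 (SE), with an edgeR adjusted p of 0.000585. Its mean moved from rank 342 to rank 42 of the 1487 rows. Without the shallow libraries, which held 3 of its 4 highest end-point levels, the log2 fold change was 2.22 ± 0.54 (SE) and the edgeR adjusted p 0.00426. In male libraries only it was 1.66 with an edgeR adjusted p of 0.0508, so the call was lost.

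miR-145a-5p, the strand that usually silences the targets of miR-145, was not called. Start-point libraries held 28.1 CPM at the lowest, 113 at the median and 533 at the highest, and end-point libraries 8.44, 18.5 and 371 CPM. The end-point fell into 2 sets of libraries by depth. In the 4 deeper libraries the row had 1 to 3 counts, or 8.44 to 18.5 CPM. These levels were below every start-point library and at or under the floor of 3 counts. The 3 shallow libraries held 110, 329 and 371 CPM, inside the start-point range of both sexes together. Those at 329 and 371 CPM were male, and male start-point libraries held 28.1 to 137 CPM. The one at 110 CPM was female, and female start-point libraries held 184 to 533 CPM. Over all libraries the log2 fold change was -0.26 ± 0.61 (SE), with an edgeR adjusted p of 0.761. In the fit that left out the shallow libraries it was -2.18 ± 0.62 (SE) with an edgeR adjusted p of 0.01, and the row was then called lower, as were 15.2% of the smRNAs tested in that fit. End-point libraries 1 and 2, labelled as the same mouse, fell on either side, with 329 CPM in the shallow and 18.5 CPM in the deeper one. The part of depth in this result was not tested.

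miR-145b, the product of the separate gene, was a low row at both time points. Its lowest, median and highest levels were 34.99, 84.5 and 183 CPM at the start-point and 0, 42.2 and 235 CPM at the end-point, so the groups overlapped. End-point library 2 had 0 counts, with a 95% Wilson interval of 0 to 23.7 CPM, and its floor was 18.5 CPM. The log2 fold change was -0.05 ± 0.55 (SE), with an edgeR adjusted p of 0.948, and without the shallow libraries -0.72 ± 0.60 (SE) with 0.35. The sign of this difference changed in several alternatives, so no direction is given for it.

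**Figure D1:**
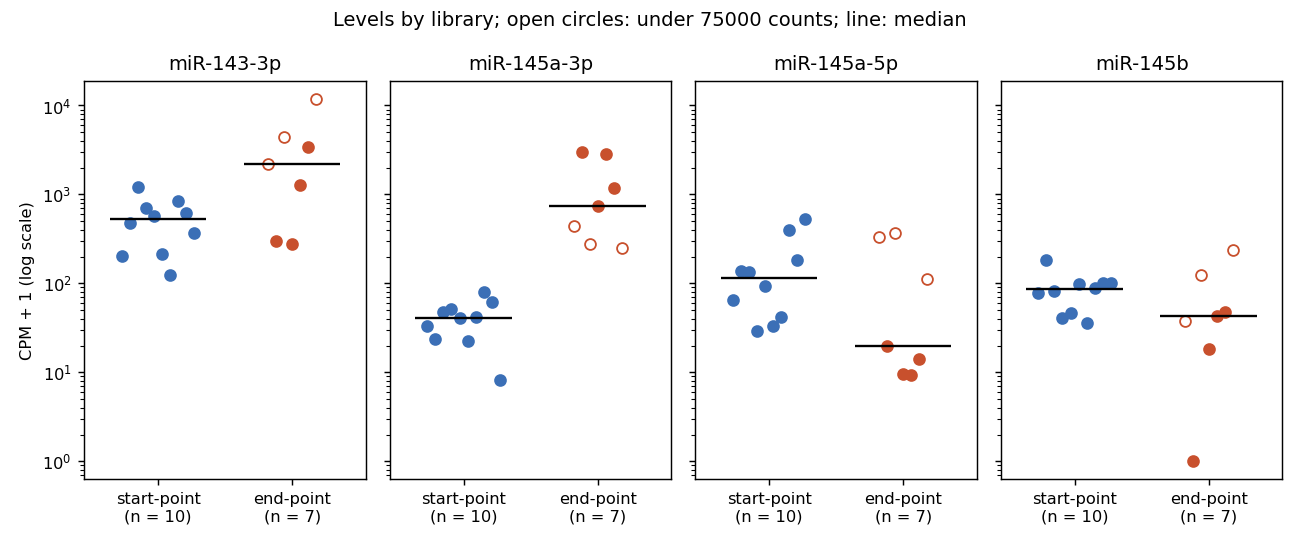
Level of each row in every library, as CPM + 1 on a log axis, with start-point libraries in blue, end-point libraries in orange, open circles for libraries under 75000 counts and a line at the median. All 7 end-point libraries of miR-145a-3p lie above all start-point libraries, and the open circles of miR-145a-5p, at 110 to 371 CPM, stand above its 4 deeper end-point libraries.

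The order of the rows by mean CPM was miR-143-3p, miR-145a-5p, miR-145b and miR-145a-3p at the start-point. Means there were 534 ± 337, 164 ± 169, 84.7 ± 42.7 and 40.3 ± 21.1 CPM (SD, n = 10). By the end-point the order had become miR-143-3p, miR-145a-3p, miR-145a-5p and miR-145b, with means of 3378 ± 4014, 1251 ± 1192, 123 ± 160 and 71.6 ± 81.9 CPM (SD, n = 7). Neighbours in either order had overlapping ranges. The change of order was the move of miR-145a-3p from the last place to the second. miR-143-3p was the leading row in 9 of 10 start-point libraries, and miR-145a-5p led in start-point library 10 with 52.9% of the 4 rows' counts. At the end-point miR-143-3p led in 4 libraries and miR-145a-3p in 3, with 68.0 to 90.6% of the counts in end-point libraries 2, 4 and 5.

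The 6 mice with libraries at both time points gave the same contrast within animals. miR-145a-3p was higher at the end-point in 6 of 6 mice, by 4.08-fold in mouse 11 to 69.3-fold in mouse 7. miR-143-3p was higher in 5 of 6, by 3.65-fold to 18.9-fold, and in mouse 5 it went from 570 to 274 CPM. miR-145a-5p was lower in 4 of 6 mice, and the exceptions were mice 1 and 3. For mouse 1 this rests on the mean of 329 and 18.5 CPM in its 2 end-point libraries, against 64.5 CPM at the start-point, and the deeper library alone was lower. Those mice had a shallow end-point library each, as did mouse 11. miR-145b was higher in 3 of 6 mice and lower in the other 3. With mouse as a block in edgeR, the log2 fold change of miR-145a-3p was 4.70 with an adjusted p of 0.0138 and that of miR-143-3p was 2.50 with 0.048. In that fit 8.19% of smRNAs were called and 3.78% were called higher, and the same 2 of the 4 rows were among them. Leaving out the second end-point library of mouse 1 as well moved miR-143-3p to 2.58 with an edgeR adjusted p of 0.0577, past the threshold, and left miR-145a-3p called at 3.98 with 0.0118.

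**Figure D2:**
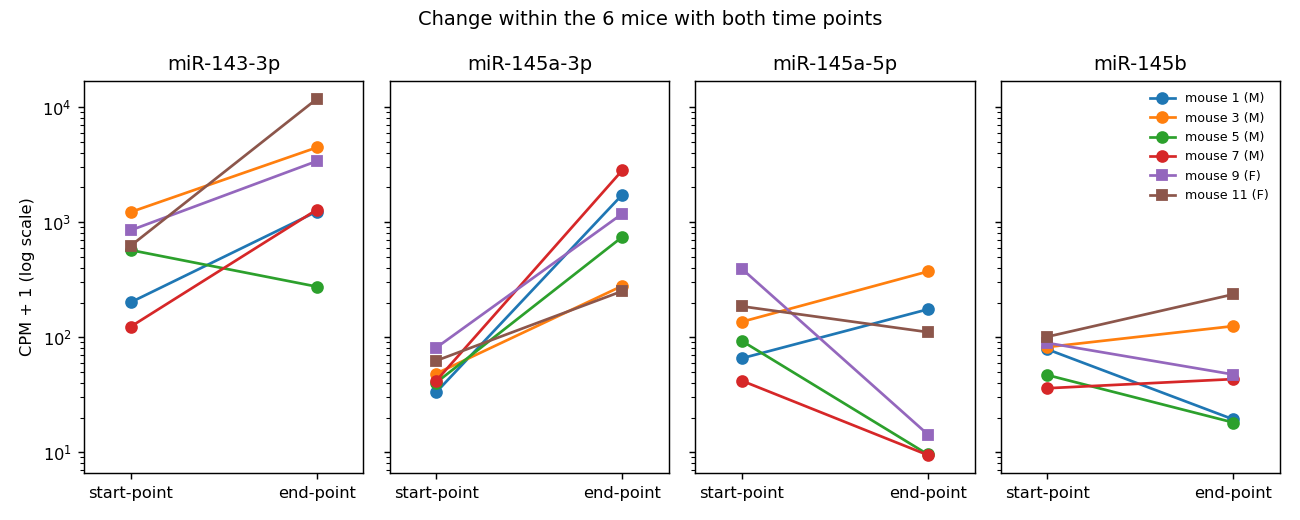
Level at the start-point and end-point in each of the 6 mice with both, as CPM + 1 on a log axis, where circles are males, squares are females and mouse 1 is the mean of its 2 end-point libraries. The lines of miR-145a-3p rise in all 6 mice, whereas those of miR-145a-5p and miR-145b go both ways.

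The arms of miR-145a were compared within each library, where scaling between libraries plays no part. At the start-point the 3p arm made up 1.33 to 64.3% of the miR-145a counts, with a median of 28.0%. The 5p arm was ahead in 8 of 10 start-point libraries, the 3p arm in 1, and they were equal in 1. At the end-point the 3p arm made up 42.9 to 99.7%, with a median of 98.9%, and was ahead in 6 of 7 libraries. In the 4 deeper end-point libraries the 3p share was 98.9 to 99.7%, from 1092 counts of the 3p arm and 7 of the 5p arm in all. In the 3 shallow ones it was 42.9% (95% Clopper-Pearson interval 21.8 to 66.0%), 57.1% (41.0 to 72.3%) and 69.6% (47.1 to 86.8%). Start-point library 4, the deepest, had 64.3% on the 3p arm from 14 counts, with an interval of 35.1 to 87.2%, and so overlapped the shallow end-point libraries.

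The mean log2 ratio of 5p to 3p counts went from 1.50 at the start-point to -4.02 at the end-point, with 0.5 added to each count. The difference of -5.51 ± 1.13 (SE) had an adjusted p of 0.00141 in limma, fitted over 334 hairpins with both arms tested. In that fit 28.4% of hairpins were called, 13.5% toward the 3p arm and 15% toward the 5p arm, so a called arm ratio was common in these libraries. The time points did not overlap for 4.19% of hairpins, and miR-145a was not among these. By size the difference of miR-145a ranked 3 among the 334 hairpins. With mouse as a block it was -5.25 with a limma adjusted p of 0.0169, and without the shallow libraries -8.24 with 2.48e-06. The test uses the same counts as the level tests and is not independent of them. Of the 334 hairpins, both arms were called higher in 11 and both lower in 13, while in 11 the 3p arm was called higher and the 5p arm lower, and in 11 the reverse.

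**Figure D3:**
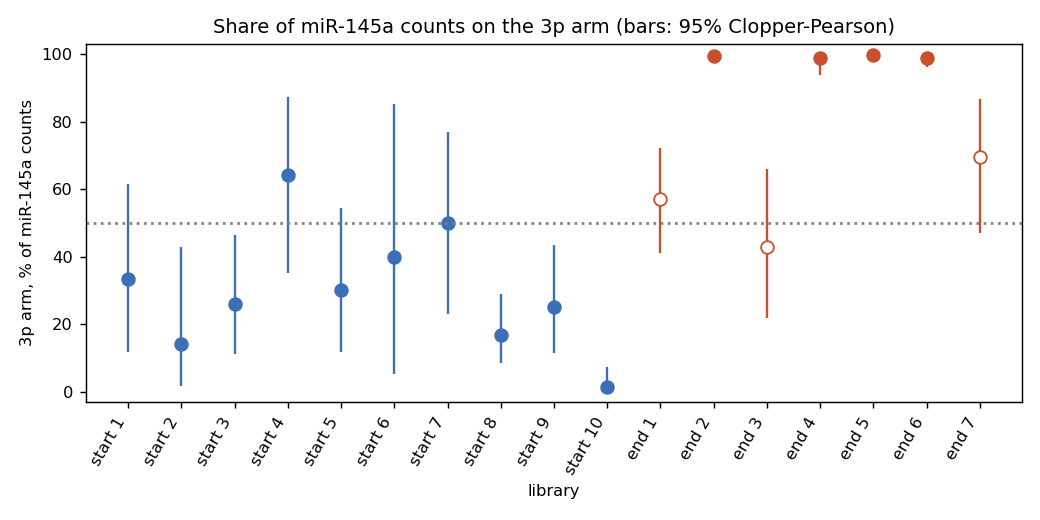
Share of miR-145a counts on the 3p arm in every library, in percent, with 95% Clopper-Pearson intervals that cover counting error only and open circles for libraries under 75000 counts. The 4 deeper end-point libraries sit at 98.9 to 99.7%, while the shallow ones sit at 42.9 to 69.6% beside the upper start-point libraries.

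**Figure D4:**
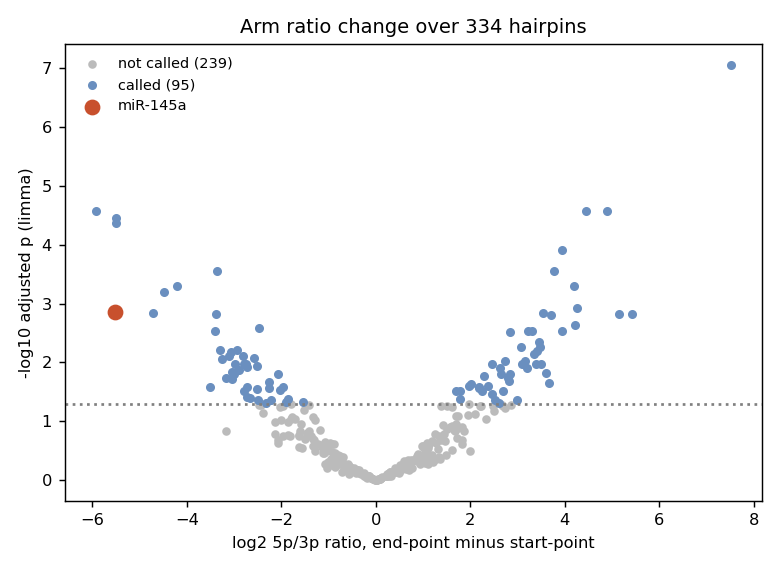
End-point minus start-point difference of the log2 ratio of 5p to 3p counts against -log10 of the limma adjusted p for 334 hairpins, with the dotted line at an adjusted p of 0.05. miR-145a, in orange, lies at -5.51 on the side of the 3p arm, among 95 hairpins called on both sides.

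The cluster partners were compared as ratios within libraries. The usual guides are miR-143-3p and miR-145a-5p. Their log2 ratio in start-point libraries was 2.00 ± 1.33 (SD, n = 10; range -0.53 to 4.50). In end-point libraries it was 5.06 ± 1.91 (SD, n = 7; range 2.69 to 7.68). The difference of 3.07 was tested by exact two-sided permutation over 19448 choices of libraries (p = 0.00108, adjusted to 0.00216 over 4 such values). Without the shallow libraries the difference was 3.65, and in male libraries only 1.70 with an adjusted exact permutation p of 0.0488. It was higher in 6 of 6 mice, with a difference of 3.42 and an exact sign-flip p of 0.0312, the smallest 6 mice allow, which adjusted to 0.0625. The guides of this shared locus differed more in end-point libraries, and miR-143-3p exceeded miR-145a-5p in 9 of 10 start-point and 7 of 7 end-point libraries.

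Against miR-145a-3p, the other 3p arm, the ratio moved the opposite way. The log2 ratio of miR-143-3p to miR-145a-3p averaged 3.49 ± 1.02 in start-point libraries (SD, n = 10) and 1.05 ± 3.17 in end-point libraries (SD, n = 7), where it spread from -3.34 to 5.51. miR-143-3p was ahead in all 10 start-point libraries and in 4 of 7 end-point libraries. The difference of -2.45, chosen for testing after the data were seen, had p = 0.034 by exact two-sided permutation (adjusted to 0.0454), and leaving out 1 library ended the call for 13 of the 17 libraries, all except start-point 7 and end-point 1, 3 and 7. The adjusted p was then up to 0.122, without end-point library 2, where the difference was -1.71. Without the 3 shallow libraries the difference was -4.59 with an adjusted exact permutation p of 0.004. Within the 6 mice it was -1.86, lower in 5 of 6, with an exact sign-flip p of 0.125 and an adjusted p of 0.167. The log2 ratio of miR-145b to miR-145a-5p averaged -0.47 ± 1.18 in start-point (SD, n = 10) and -0.28 ± 2.06 in end-point libraries (SD, n = 7; exact permutation, p = 0.808), so the closely related rows showed no difference beyond the spread between libraries. Without the shallow libraries that difference was 0.81, with an adjusted exact permutation p of 0.374.

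Over all 17 libraries miR-143-3p and miR-145a-3p had a Spearman rho of 0.708 in log2 CPM, and miR-145a-3p ranked 15 among the 1269 other smRNAs by likeness to miR-143-3p. The shift between time points is part of this value. Within the end-point the relation had the opposite sign, with Pearson's r of -0.661 (exact permutation p = 0.109, adjusted 0.3) and Spearman's rho of -0.714 (p = 0.0881, adjusted 0.211; n = 7). Without the 2 libraries farthest from the median of miR-143-3p, r was -0.773. Within the start-point, r was 0.435 (permutation p = 0.208, adjusted 0.316; n = 10) and rho 0.648 (p = 0.049, adjusted 0.196), and r was 0.702 without the 2 farthest. The libraries with the highest miR-143-3p at the end-point, 7 and 3, had the lowest miR-145a-3p. The closest relation of the 12 computed was that of miR-143-3p with miR-145b at the end-point, with r of 0.923 (exact permutation p = 0.00595, adjusted 0.0714; n = 7) and rho of 0.929 (p = 0.00675, adjusted 0.081), and r of 0.907 without the 2 farthest. None of the 12 passed after adjustment. The 7 end-point libraries came from 6 mice.

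The likeness of partners was small in the table as a whole. The arms of a hairpin had a median Spearman rho of 0.033 over 334 hairpins, and rows of different genes within 10 kb of each other 0.0074 over 507 pairs. All pairs of tested smRNAs had a median of 0.017. miR-145a-3p and miR-145a-5p had a rho of -0.444, below the lower quartile of hairpins at -0.246. miR-143-3p and miR-145a-5p, the guides of the shared locus, had -0.0784, and miR-145a-5p and miR-145b had 0.181. These are descriptions across 17 libraries that share depth and time point.

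The 3 smRNAs most like miR-143-3p over the 17 libraries were miR-6912-5p (rho 0.887), miR-127-3p (0.799) and miR-6970-3p (0.794). Those most like miR-145a-3p were miR-17-3p (0.824), miR-3102-3p (0.821) and miR-344c-3p (0.819). Of these, miR-17-3p, the minor strand of miR-17 in the proliferation-linked miR-17 to miR-92 cluster, had a log2 fold change of 6.06 (edgeR adjusted p = 0.000131). It went from 136 ± 217 to 3691 ± 4186 CPM (SD over 10 and 7 libraries). The first match of miR-143-3p, miR-6912-5p, went from 56.6 ± 38.9 to 363 ± 313 CPM, a log2 fold change of 3.09 (edgeR adjusted p = 0.00011). No sequence is shown for the member rows, which does not mean that RefSeq lacks them. RefSeq mature sequences on GRCm38.p6 are shown for 5 of the 10 names looked up, all of them look-alikes. Their seeds (bases 2 to 8, in capitals, 5′ to 3′) can be compared.
miR-6912-5p: uACAGGGAgggugcucaggcag
miR-127-3p: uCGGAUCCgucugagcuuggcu
miR-17-3p: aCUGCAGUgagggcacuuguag
miR-3102-3p: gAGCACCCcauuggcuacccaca
miR-344c-3p: uGAUCUAGucaaagccugacagu
The 5 seeds differ from one another.

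Females and males were compared with time point as a covariate, in a fit that called 0% of 1462 smRNAs in edgeR, with 140 at an unadjusted p under 0.05 and 35 called by the DESeq2 Wald test. None of the 4 rows was called in edgeR. Their female minus male log2 differences were 0.98 ± 0.60 (SE) for miR-143-3p, -0.80 ± 0.70 for miR-145a-3p, 0.80 ± 0.66 for miR-145a-5p and 0.56 ± 0.61 for miR-145b, with edgeR adjusted p from 0.612 to 0.779. The interaction of sex and time point was also called for 0% of 1462 smRNAs in edgeR, where 93 had an unadjusted p under 0.05, and for 2 by DESeq2. Its largest value among the rows was that of miR-143-3p, 2.67 ± 1.055 (SE) with an edgeR adjusted p of 0.614. miR-143-3p held 3390 and 11780 CPM in the 2 female end-point libraries and 274 to 4455 CPM in the 5 male ones. From the same fit its log2 fold change was 4.29 ± 0.94 (SE) in females and 1.62 ± 0.57 in males, with edgeR adjusted p of 0.0136 and 0.0451, and the difference itself was not called. miR-145a-3p was called higher in each sex, with 4.78 ± 1.19 (SE) in females and 6.10 ± 0.82 in males. The share of all smRNAs called within each sex in that fit was not computed. In a separate edgeR fit of male libraries only, 135 of 1200 smRNAs tested were called higher and 76 lower.

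Other miRNAs of smooth muscle were read from the same fit. Of a list of 10 linked to the smooth muscle phenotype, 8 were in the table and 7 were tested. In edgeR 0 of these were called higher and 1 lower, with a median log2 fold change of -0.89, against -0.18 over all tested smRNAs. With 17.4% of all smRNAs called higher and 16.3% lower, these counts were near the background. The row called was miR-133a-3p, a muscle miRNA that restrains smooth muscle proliferation, whose log2 fold change was -1.94 ± 0.74 (SE; edgeR adjusted p = 0.0446). It had 56.2 to 1922 CPM at the start-point and 18.5 to 495 CPM at the end-point. The near-identical relative miR-133b-3p, with which it may share reads, had -0.89 ± 0.57 (SE) and was not called. With mouse as a block 0 rows of the list were called, beside 8.19% of all smRNAs. Without the shallow libraries 0 were called, beside 18.4% of all smRNAs higher and 15.2% lower. With library totals only 3 were called, all lower. That scaling called 329 of 1270 smRNAs lower and 147 higher, with a median log2 fold change of -0.67 over all and -1.08 for the list. miR-24-3p, at 1.19 ± 0.51 (SE) with an edgeR adjusted p of 0.0709, had the highest fold change of the list. The summed level of the 8 rows was 972 to 5160 CPM at the start-point and 432 to 3050 CPM at the end-point. The muscle marker miR-1a-3p and miR-195a-5p were not analysed here.

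Of a mesenchymal list of 9, typical of fibroblasts and other stroma, 6 were in the table and 4 tested. In edgeR 0 were called higher and 1 lower, beside 17.4% and 16.3% of all smRNAs. The median log2 fold change of the list was 0.11. The row called was miR-152-3p, a stromal miRNA that targets a DNA methyltransferase, at -1.96 ± 0.68 (SE) with an edgeR adjusted p of 0.026, and it was not called with mouse as a block. Without the shallow libraries all 6 rows were tested, and 1 was called higher and 2 lower. Of all smRNAs tested without those libraries, 18.4% were called higher and 15.2% lower. Levels of miR-199a-3p, merged in the table with the identical miR-199b-3p, were 68.6 to 200.1 CPM at the start-point and 25.3 to 371 CPM at the end-point (log2 fold change 0.38). For miR-214-3p, its cluster partner in fibroblasts, the value was -0.16, and neither was called. Summed levels of the 6 rows overlapped, at 848 to 2650 and 1080 to 3790 CPM. Neither row of the endothelial list was analysed here.

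Markers of other cells are given beside the same background of 17.4% called higher and 16.3% lower. Of 5 leukocyte rows tested, 1 was called higher (miR-223-3p of neutrophils, 2.38) and 1 lower (miR-342-3p, -1.61), both as edgeR log2 fold changes, which is near that background. Of 10 epithelial rows tested, 3 were called higher (miR-215-5p, 3.51; miR-200b-3p, 3.28; miR-141-3p, 2.86) and 4 lower (miR-31-5p, -2.30; miR-375-3p, -2.31; miR-194-5p, -2.31; miR-192-5p, -2.77). With mouse as a block 0 leukocyte and 2 epithelial rows were called, both lower, beside 8.19% of all smRNAs called in either direction. Without the shallow libraries 3 epithelial rows were called higher and 1 lower, beside 18.4% and 15.2% of all smRNAs. The red cell list had 2 rows tested and 0 called in edgeR, of which miR-486a-5p, the more abundant, had -1.27 ± 0.57 (SE). Without the shallow libraries 1 of the 2 red cell rows tested was called higher and 0 lower. Summed levels overlapped between time points for each list, from 1100 to 4170 and 702 to 3410 CPM for leukocytes and from 3900 to 20100 and 3030 to 38300 CPM for epithelium. The part of these cell types in the change of miR-143 and miR-145a rows was not tested.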

How the data were processed

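The authors deposited a table of whole-number counts, 1 row per smRNA and 1 column per library, not normalized. Per the submitters' processing notes, bcl2fastq and the build GRCm38 were used. Per the labels' protocols, libraries were made with the QIAseq miRNA kit, which adds unique molecular identifiers. The aligner, the counter, the annotation version, the handling of reads that match several miRNAs and the use of the identifiers for these counts are not given in the sources used here. If PCR copies were not removed, they add to the spread, and intervals and floors cover counting error only.

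Samples were grouped by the labelled time point, with 10 start-point and 7 end-point libraries from 10 mice, 6 of which had both. The labels do not say whether the libraries of one mouse came from separate pellets. No 2 libraries agreed within sampling noise (chi-square per degree of freedom of 10.1 or more over 136 pairs). Totals of 32320 to 178075 counts set the precision. The count test was edgeR 4.0.16 (glmQLFit, glmQLFTest, with the current dispersion handling) in R 4.3.3, with TMM factors of 0.419 to 1.92, filterByExpr and Benjamini-Hochberg adjustment over all smRNAs tested. Arm ratios were fitted with limma 3.58.1 on log2 ratios of counts with 0.5 added. Ratios between rows were compared by exact permutation, and the ratio of miR-143-3p to miR-145a-3p was added after seeing the data, in place of one that needs miR-143-5p. Likeness was computed on TMM-scaled log2 CPM (prior count 2), and relations within a time point used log2 of CPM with 10 added and 100000 resamples for 10 libraries. On simulated counts of 1270 smRNAs the time point test recovered 66.1% of those changed by 2 on the log2 scale and 87.5% of those changed by 3. The arm ratio test recovered 68.8% of hairpins changed by 3 among 317. False calls were 1.95% of the calls for time point and 2.94% of those for arm ratio. The simulated libraries were independent, without pairing by mouse, and alike in composition apart from the changed rows. These rates need not hold for the real libraries.

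Mouse identity in the labels pairs the libraries, not the title numbers. Libraries of one mouse deviated from their group means with correlations of -0.0721 to 0.26. All member rows are named, and from each list the rows called or, where none was, the most abundant tested. Further list rows were named after their values were seen. For 2 rows the 3 smRNAs of highest likeness are named. The members, lists and tests were chosen with earlier results of these data known. Alternatives covered scaling, filters, DESeq2 1.42.0, limma-voom, mouse as a block and subsets of libraries.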

Additional observations from a re-analysis of the deposited data

Results flagged for a closer look

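Among 18 groups of values examined, 3 held a library far from the others of its time point, where chance flags about 1 in 20. miR-143-3p was at 11780 CPM in end-point library 7, a female and shallow library, against 4455 CPM in the next highest. miR-145b was at 182.8 CPM in start-point library 2, against 100.9 CPM in the next. The log2 ratio of miR-145a-5p to miR-145a-3p was 5.634 in start-point library 10, from 74 and 1 counts, against 2.32 in the next. Without end-point library 7, miR-143-3p had a log2 fold change of 2.29 with an edgeR adjusted p of 0.00186, and without start-point library 10 the arm ratio differed by -5.05 with a limma adjusted p of 0.00234.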

How the results depend on the processing

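miR-145a-3p and the arm ratio of miR-145a kept their direction and their call in each of 14 and 8 alternatives and without each of the 17 libraries, with log2 fold changes of 3.98 to 6.76 and differences of -8.24 to -4.82. miR-143-3p kept its direction in 14 alternatives, from 1.66 to 3.00, and lost its call in 2, named above. For miR-145a-5p, male libraries only gave 0.565. For miR-145b, the mouse block without the second end-point library of mouse 1 gave 0.0713 and summing the libraries of mouse 1 gave 0.0968. Leaving out single libraries gave -0.585 to 0.207, and its female minus male difference without the shallow libraries was -0.0518. Of 428 smRNAs called for time point, the replicate block on mouse left 104, or 85 without the second end-point library of mouse 1 and 114 with it taken as mouse 2, and male libraries only 211. Library totals only gave 476 calls, 30.9% of them higher against 51.6% with TMM, and limma-voom 362, with 33.7% higher. The mouse block changed no call among the 4 rows. Called arm ratios went from 95 to 43 with the block and 27 in males. For sex, library totals gave 1 call and DESeq2 35, and for the interaction DESeq2 and the fit without shallow libraries gave 2 each. The ratio of miR-143-3p to miR-145a-3p was -2.12 with 2 added to each count, -2.37 with the libraries of mouse 1 summed, -1.86 within mice, -3.26 in males, -4.59 without the shallow libraries and -3.19 to -1.71 without single libraries. The ratio of miR-143-3p to miR-145a-5p was 1.70 in males and 3.65 without the shallow libraries. Within mice it was 3.42, with an adjusted exact sign-flip p of 0.0625, and the summed level differed by 2.48 on the log2 scale. The ratio of miR-145b to miR-145a-5p changed sign with 0.1 added (-0.0531), in males (-1.01) and without single libraries (-0.167 to 0.626). The cause was not tested. The planned ratio of miR-143-5p to miR-145a-3p was not run. Depth limits miR-145a-5p, at 1 to 3 counts in 4 end-point libraries, and miR-145a-3p, at 10 counts or fewer in all 10 start-point libraries.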
